A study of Mus musculus with 22 samples.

Results

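The libraries described here are whole mouse brains at postnatal day 0, chosen by the raw read count of Hoxb8, a homeobox gene transcribed in the spinal cord and in the caudal end of the hindbrain. A library with at least 90 Hoxb8 counts was called high and one with fewer was called low. This gave 8 high and 10 low libraries, 18 in all, of the 20 libraries with a column of counts and the 22 that are labelled. The other 2 libraries with a column, labelled 1_3_IC and 1_7_IC, went against their labels and were left out unless stated. The classes were made from Hoxb8 itself, so its fold change and p-value are not given. It stays in the counts of called genes and of Hox genes, where its outcome was fixed by the rule. The p-values of all other genes measure only how those genes go with classes made from the same libraries.

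The brains came from a comparison of 2 mouse models of Prader-Willi syndrome with wild-type littermates. PWS-cr mice (labelled HET PWS-Cr) carry a paternal deletion of the critical interval, from Snord116 to Ipw. PWS-IC mice (labelled HET PWS-ICdel) carry a paternal deletion of the imprinting centre and lose expression of the wider imprinted domain. The controls (labelled WT) are littermates with neither deletion. The mRNA libraries were paired and not stranded, so where a gene overlaps its antisense partner the reads of the pair are uncertain. The PWS-cr deletion line was bought from The Jackson Laboratory; the background of the sequenced pups, the length of cord or caudal hindbrain left on each brain and the way the brains were cut are not given in the sources used here.

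The high class held 3 PWS-cr mutants, 2 PWS-IC mutants and 3 wild types of the PWS-IC series. The low class held 3 PWS-cr mutants and all 5 wild types of the PWS-cr series, with 1 PWS-IC mutant and 1 wild type of the PWS-IC series. No wild type of the PWS-cr series was high, so that in this series the difference between classes was estimated among the mutants. The high class had 5 females and 3 males, and the low class had 4 females and 6 males. Total counts ran from 50463706 to 58727396 in the high class and from 45796030 to 62103143 in the low class. Each library is 1 pup. In bulk tissue, fewer cells of a type and less RNA per cell cannot be told apart.

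Hox genes code for transcription factors that give positions along the head-to-tail axis their identity. They lie in clusters, and their paralogue groups are numbered in the order in which the genes stand in the cluster, from those whose expression reaches furthest forward to those that stay furthest back. In the mouse hindbrain the front limits of the lowest groups fall between the segments of the embryonic hindbrain, the middle groups begin near the junction of hindbrain and cord, and the highest groups belong to the thoracic cord and below. The forebrain and midbrain lie in front of all of them, and do not express Hox genes in the normal brain.

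Hoxb8 had 745, 674, 515, 142 and 100 counts in the high PWS-IC libraries 1_1_IC, 1_10_IC, 4_3_IC, 4_4_IC and 4_6_IC, and 290, 236 and 147 in the high PWS-cr libraries 3_5_Cr, 4_3_Cr and 1_5_Cr. Among the low libraries it had 80 counts in 4_2_Cr, 58 in 4_1_Cr, 16 in 3_6_Cr, 12 in 4_5_IC, 10 in 2_2_Cr, 7 in 1_2_Cr, 5 in 1_3_Cr and 1 in each of 1_1_Cr, 3_1_Cr and 1_5_IC. The counts fell over a continuous range and the limit of 90 cut through it. Just inside the limit stood 4_6_IC with 100 counts (95% exact Poisson interval 81.4 to 122, counting error only) and just outside it 4_2_Cr with 80 (63.4 to 99.6), and both intervals hold the limit. The next libraries on either side, 4_4_IC with 142 counts (120 to 167) and 4_1_Cr with 58 (44 to 75), do not reach it. In CPM, the counts of a library scaled to a common library size with TMM factors, Hoxb8 ran from 1.98 to 12.8 in the high class with a median of 4.98, and from 0.0185 to 1.65 in the low class with a median of 0.164.

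High and low brains stood side by side within litters. Of 6 litters, 5 held both classes. The lowest Hoxb8 count of a high pup and the highest of a low pup, whose order the limit fixes, were 147 and 7 in the first PWS-cr litter, 290 and 16 in the third, 236 and 80 in the fourth, 674 and 1 in the first PWS-IC litter and 100 and 12 in the other.

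Both libraries that were left out carried signs of swapped identity. Snrpn, which is silent in PWS-IC mutants, stood at 397 CPM in 1_3_IC, labelled a PWS-IC mutant, while the other 3 mutants had 4.91 to 8.07. In 1_7_IC, labelled wild type, it stood at 5.68, while the other wild types of the series had 243 to 284. Xist, which is transcribed from the inactive X chromosome of females, stood at 1.4 CPM in 1_3_IC, labelled female, and at 2064 in 1_7_IC, labelled male. Hoxb8 had 960 counts in 1_3_IC and 14 in 1_7_IC, so by the same limit the first would be high and the second low whichever pup each came from.

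**Figure D1:**
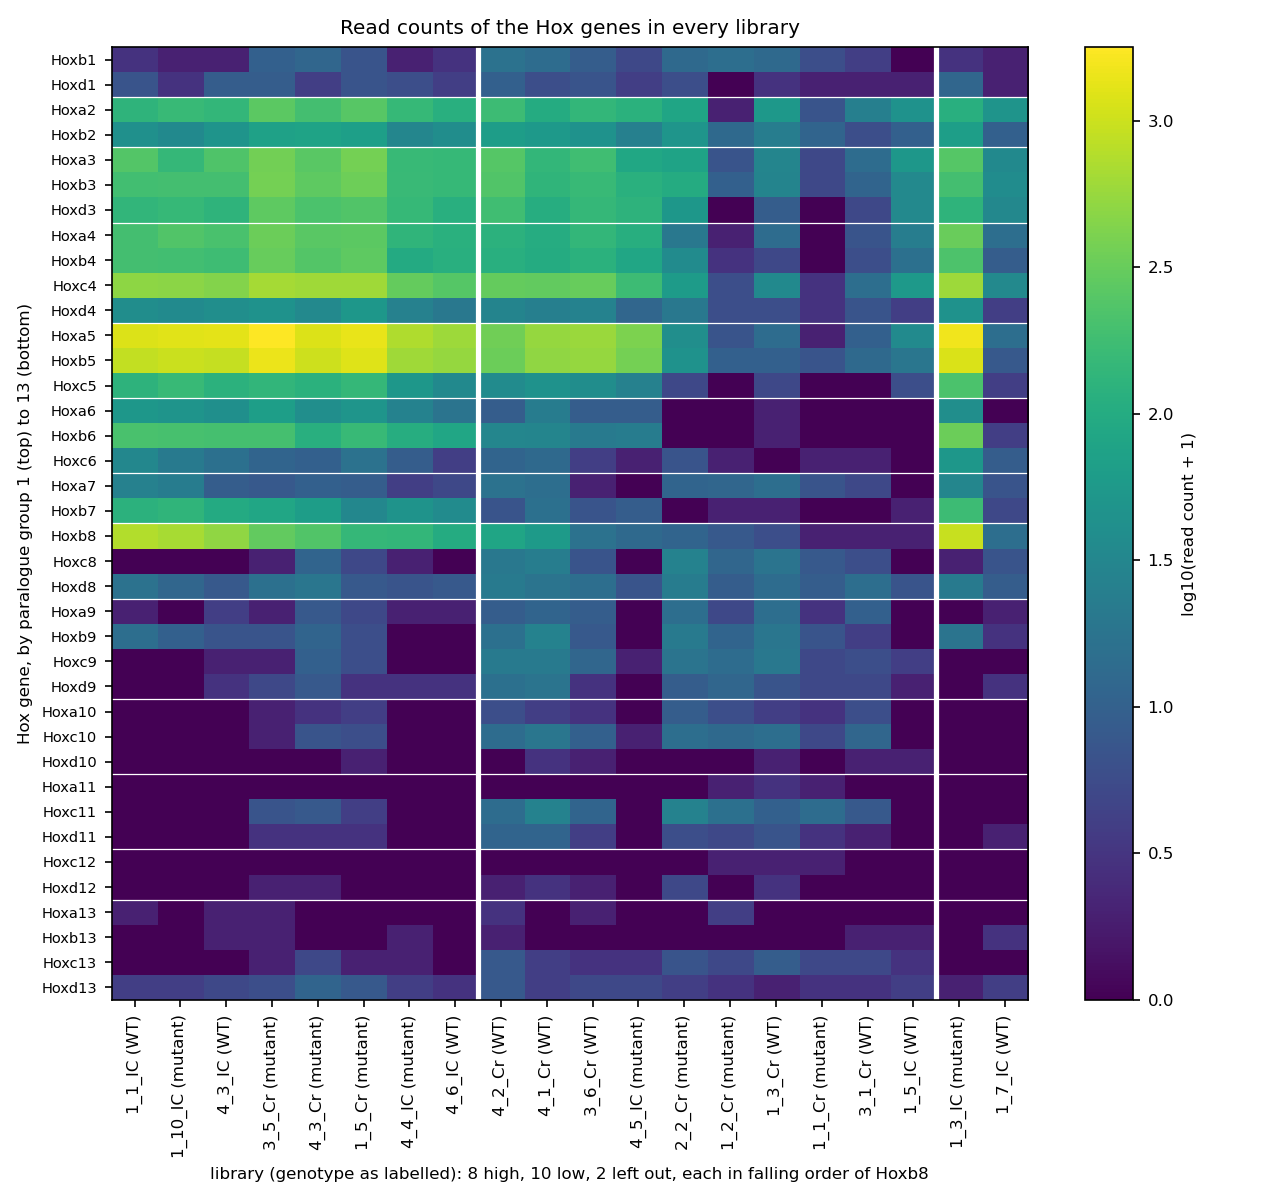
Read counts of 38 Hox genes, shown as log10 of the count plus 1, with 1 row per gene in order of paralogue group and 1 column per library: 8 high, 10 low and the 2 left out, each block in falling order of Hoxb8. Groups 4 and 5 are bright through the high block and the first 4 low columns, then dim; the dimmest columns are 1_2_Cr and 1_1_Cr, where Hoxa2 had 1 and 6 counts.

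The Hox genes differed between the classes group by group. Summed over the 7 genes of groups 4 and 5, the high libraries had 33.1 to 86.2 CPM with a median of 58.8, and the low libraries 0.24 to 31.4 with a median of 3.49. All 8 high libraries lay above all 10 low ones. For the 7 genes of groups 6 to 8 other than Hoxb8, the sums ran from 2.95 to 8.3 (median 5.63) in the high class and from 0.13 to 2.43 (median 0.796) in the low class, again without overlap. For the 8 genes of groups 1 to 3 the ranges met, at 11.5 to 25.6 (median 13.2) and 0.698 to 19.3 (median 5.29). They met only across series, since within the PWS-cr series the sums were 20.9 to 25.6 against 0.698 to 19.3 and within the PWS-IC series 11.5 to 13.3 against 3.38 to 7.65.

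The most caudal groups did not follow. Summed over the 16 genes of groups 9 to 13, the high PWS-cr libraries had 31 to 65 counts and the low ones 45 to 142, and the high PWS-IC libraries had 5 to 19 counts and the low ones 8 to 11. Library for library the PWS-cr series had more of these reads than the PWS-IC series, whatever the Hoxb8 class. Hoxc10, a gene of the lumbar cord, had at most 6 counts in a high library and 18 in a low one. Hoxc8, Hoxc9 and Hoxc11 had 0 counts in several high libraries and up to 27 in low PWS-cr libraries. The genes of the lower cord therefore did not mark the high class.

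The low class was graded, and the name "without caudal hindbrain" does not hold for all of it. Hoxa5, whose front limit lies at the hindbrain and cord junction, had 346 to 584 counts in 4 low libraries (4_2_Cr, 4_1_Cr, 3_6_Cr and 4_5_IC) and 1 to 40 in the other 6. In the high libraries it had 599 to 1782. Hoxb6 followed the same order, with 21 to 30 counts in those 4 low libraries, 0 or 1 in the other 6 and 82 to 204 in the high ones. Hoxa2, a gene of the front hindbrain, had 99 to 169 counts in the same 4, 24 to 81 in 2_2_Cr, 1_3_Cr, 3_1_Cr and 1_5_IC, and 6 and 1 in 1_1_Cr and 1_2_Cr. The low brains thus ran from 4 with clear counts of groups 2 to 6 down to 2 with almost none.

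Across all genes, edgeR's quasi-likelihood test with series and genotype as terms called 7 of 23574 genes at a Benjamini-Hochberg adjusted p under 0.05 (0.0297%), and all 7 were higher in the high class. They were Hoxb8, which chose the classes, and Hoxb7, Hoxb6, Hoxa6, Hoxc5, the long non-coding RNA D130009I18Rik and the serine protease inhibitor gene Serpinb1b. Among the low libraries, Hoxb7 and Hoxa6 reached 10 counts in 4_1_Cr alone (15 and 22). Both genes thus passed the filter of 10 counts in 4 libraries only through the high class. With a filter of 10 counts in every library, 0 genes were called. At an unadjusted p under 0.05 there were 1700 genes (7.21%), 1224 higher (5.19%) and 476 lower (2.02%). The 6 called genes other than Hoxb8 were each higher in the high pups of 5 of the 5 litters that held both classes. How many of all genes were so was not counted, so litter counts here and below are given as values only. Yet with litter in place of series as a term 0 genes were called, with 2384 at an unadjusted p under 0.05. These calls depended on single libraries, and their number fell to 0 without 1_5_IC.

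Hoxb7 and Hoxb6 are the neighbours of Hoxb8 on chromosome 11. Hoxb7 (chr11:96286623-96290162, plus strand, mm10) ran from 0.566 to 2.56 CPM in the high class with a median of 1.4, and from 0 to 0.276 in the low class with a median of 0.0194. The classes did not overlap, and the log2 fold change was 5.12 ± 0.65 (SE, adjusted p = 0.00561). Hoxb6 (chr11:96292476-96301569, plus strand) ran from 1.63 to 3.82 with a median of 3.08 against 0 to 0.619 with a median of 0.00933, also without overlap, with a log2 fold change of 5.18 ± 0.72 (adjusted p = 0.00886). Fitted fold changes of genes near 0 in the low class depend on the prior count and are no bound. Hoxb8 itself lies at chr11:96281905-96285315.

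Hoxa6 (chr6:52206288-52208722, minus strand) had 0.337 to 1.2 CPM in the high class (median 0.83) and 0 to 0.405 in the low class (median 0.00933), overlapping in 1 low library, 4_1_Cr. Its log2 fold change was 4.69 ± 0.73 (adjusted p = 0.0176). Hoxc5 (chr15:102967443-103017429, plus strand) had 0.674 to 2.94 CPM (median 2.21) against 0 to 0.829 (median 0.0838), with a log2 fold change of 4.07 ± 0.70 (adjusted p = 0.0492). The span of Hoxc5 covers Hoxc6, Hoxc8 and Hoxc9, and that of the antisense transcript Hoxaas3 covers Hoxa6, so their counts are uncertain where reads overlap. The Hoxb cluster likewise carries Hoxb5os across Hoxb6 and Hoxb5 on the other strand.

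Of the 2 called genes outside the Hox clusters, Serpinb1b (chr13:33078575-33094380, plus strand) ran from 2.43 to 4.53 CPM in the high class with a median of 3.43, and from 1.21 to 2.44 in the low class with a median of 1.6. The classes met only at 4_4_IC and 4_2_Cr, and the log2 fold change was 1.19 ± 0.19 (adjusted p = 0.0176). It was 1.40 ± 0.23 in the PWS-cr series and 0.97 ± 0.28 in the PWS-IC series. Serpinb1b has close paralogues beside it, so its reads could be shared among them. D130009I18Rik (chr14:104612791-104966783, plus strand) ran from 0.755 to 1.04 CPM in the high class with a median of 0.974 and from 0.28 to 0.743 in the low class with a median of 0.46. The classes did not overlap, and the log2 fold change was 1.23 ± 0.19 (adjusted p = 0.0176). Nothing is known to the sources used here of what this RNA does.

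RefSeq's promoter table (GRCm38.p6, the build of mm10) held an entry for 4 of the 7 called genes, and the 250 bases before each RefSeq start are shown because these genes were called together across the same brains; Hoxb7, Hoxb6 and Hoxc5 are named only. Capitals mark TGATNNAT, a sequence of the kind read by Hox proteins with their Pbx partners, and TAATTA, a homeodomain core, each searched on both strands. The windows are chr11:96281655-96281904 (plus strand) for Hoxb8, chr6:52208673-52208922 (minus strand) for Hoxa6, chr13:33083853-33084102 (plus strand) for Serpinb1b and chr14:104638894-104639143 (plus strand) for D130009I18Rik.
Hoxb8: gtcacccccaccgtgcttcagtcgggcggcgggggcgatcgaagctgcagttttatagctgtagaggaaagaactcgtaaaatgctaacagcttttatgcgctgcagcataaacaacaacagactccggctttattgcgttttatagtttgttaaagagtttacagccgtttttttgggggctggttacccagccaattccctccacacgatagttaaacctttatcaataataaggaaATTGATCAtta
Hoxa6: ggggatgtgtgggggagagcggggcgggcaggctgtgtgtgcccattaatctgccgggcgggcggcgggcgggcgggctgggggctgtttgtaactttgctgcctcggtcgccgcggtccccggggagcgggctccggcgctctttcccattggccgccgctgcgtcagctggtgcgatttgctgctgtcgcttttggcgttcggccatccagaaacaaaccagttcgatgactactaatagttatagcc
Serpinb1b: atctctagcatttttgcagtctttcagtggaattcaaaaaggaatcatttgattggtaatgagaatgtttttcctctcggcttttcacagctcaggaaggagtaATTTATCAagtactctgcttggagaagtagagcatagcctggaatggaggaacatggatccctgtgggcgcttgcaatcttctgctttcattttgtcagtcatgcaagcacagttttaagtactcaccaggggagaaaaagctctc
D130009I18Rik: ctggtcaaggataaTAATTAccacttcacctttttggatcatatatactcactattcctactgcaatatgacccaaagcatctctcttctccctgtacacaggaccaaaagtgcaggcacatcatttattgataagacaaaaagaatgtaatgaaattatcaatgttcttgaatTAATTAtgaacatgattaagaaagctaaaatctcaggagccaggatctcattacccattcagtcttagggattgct
Hoxb8 and Serpinb1b each held 1 match to TGATNNAT, which 2524 of 32851 promoters of the same length hold (7.68%), and D130009I18Rik held 2 matches to TAATTA, which 1590 hold (4.84%). Hoxa6 held neither. A match describes the letters and not a bound site.

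Of the 26 Hox genes that passed the filter, Hoxb8 among them, 18 were higher at an unadjusted p under 0.05 and 3 lower. Of the 18, 5 passed the adjusted threshold, again with Hoxb8. The median log2 fold change, Hoxb8 included, was 2.29, against 0.00 over all genes tested. Hoxb7, Hoxa6 and Hoxc6 passed the filter only with the counts of the high class. Of the Hox genes that were not called, Hoxa5 and Hoxb5 had the largest fold changes. Hoxa5 (chr6:52201754-52204587) ran from 11.9 to 32.8 CPM in the high class with a median of 22.8, and from 0.0218 to 10.4 in the low class with a median of 0.698; its log2 fold change was 4.17 ± 0.85 (adjusted p = 0.148). Hoxb5 ran from 10.8 to 26.3 (median 17) against 0.131 to 9.62 (median 0.587), with 3.99 ± 0.84 (adjusted p = 0.154). For both genes all high libraries lay above all low ones, although neither passed the adjustment over all genes.

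The remaining genes of groups 1 to 6 had smaller fold changes. Hoxc6 had a log2 fold change of 2.83 ± 0.77. Hoxc4 had a log2 fold change of 3.23 ± 0.67, Hoxa4 of 3.12 ± 0.69, Hoxb4 of 3.03 ± 0.70 and Hoxd4 of 2.25 ± 0.44. Hoxa3 had 2.45 ± 0.61, Hoxb3 2.30 ± 0.61 and Hoxd3 2.29 ± 0.72, while Hoxa2 had 1.94 ± 0.53 and Hoxb2 1.44 ± 0.43. All had an unadjusted p under 0.05, and none passed the adjustment. Hoxb1 was the exception among the front genes, with -0.32 ± 0.46. It had at most 11 counts in a high library and 16 in a low one.

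The genes tested of group 9 and above, and the 3 of groups 7 and 8 that follow, had lower or negative values. Hoxc9 had a log2 fold change of -1.48 ± 0.59, Hoxc10 of -1.42 ± 0.52 and Hoxc11 of -1.80 ± 0.53, each at an unadjusted p under 0.05 and none past the adjustment. Hoxb9 had 0.14 ± 0.76, Hoxd8 0.27 ± 0.34, Hoxc8 -1.48 ± 0.70 and Hoxa7 1.06 ± 0.75. Hoxa7 split by series, with 6.70 ± 2.02 in the PWS-IC series, where both low libraries had 0 counts, and -0.27 ± 0.66 in the PWS-cr series. The test of that difference gave an adjusted p of 1.

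The non-coding transcripts of the Hox clusters went with their neighbours. Of 7 tested, 7 had a positive log2 fold change and 6 were higher at an unadjusted p under 0.05, with a median of 1.96. Haglr, which lies between Hoxd3 and Hoxd1, ran from 1.73 to 3.49 CPM in the high class (median 2.67) and from 0 to 2.52 in the low class (median 0.707), with 2.23 ± 0.63. Hoxaas2, on the strand opposite the front Hoxa genes, ran from 0.841 to 2.04 (median 1.09) against 0.0654 to 1.24 (median 0.509), with 1.96 ± 0.41. Hotairm1, at the front end of the Hoxa cluster, had 2.10 ± 0.43.

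A plainer reading without a model counted the genes whose high libraries all lay above, or all below, the low ones within a series. Genotype was not accounted for in these counts. In the PWS-cr series the 3 high libraries were all mutants. The 8 low ones were 3 mutants and 5 wild types, so class and genotype were partly mixed there. In the PWS-cr series alone, 232 genes (0.984%) did so upwards and 103 (0.437%) downwards, and in the PWS-IC series alone 956 (4.06%) and 705 (2.99%). Within both there were 41 higher (0.174% of the genes tested) and 8 lower (0.0339%). Taken over all 18 libraries at once, 10 genes did not overlap upwards (0.0424%): Hoxb8, which could not overlap because it made the classes, and Hoxb7, Hoxb6, Hoxa5, Hoxb5, D130009I18Rik, 4930517J16Rik, Prrxl1, Mafa and Pthlh. Downwards there was 1 gene (0.00424%), Prr22, with 0.343 to 0.73 CPM in the high class and 0.746 to 0.921 in the low class. Beside Hox genes, Hoxb8 among them, and their transcripts, the 41 included the interneuron transcription factors Prrxl1, Lbx1, Pax2 and Mafa, the glycine transporter Slc6a5, the synaptic genes Syt2 and Sncg, and Aldoc. The 8 lower genes were Prr22, Gm12391, Tstd1, 1700094M23Rik, Med31, Cdk8, Fam8a1 and the basal forebrain factor Lhx8. Genes of this kind, and list members beyond the 2 most abundant of each list, were chosen for naming after their values were seen.

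Apart from the Hox genes, no member of a marker list passed the adjusted threshold, so the groups below are described by their counts at an unadjusted p under 0.05, which 5.19% of all genes passed upwards and 2.02% downwards, and by their median log2 fold change, which was 0.00 over all genes (50.4% positive).

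The interneurons of the dorsal hindbrain and spinal cord, which relay touch, pain and visceral signals, were covered by 33 tested genes. Of these, 27 had a positive log2 fold change, 16 were higher at an unadjusted p under 0.05 and 0 were lower, with a median of 0.40. Prrxl1, a homeobox gene of pain-circuit neurons, ran from 3.07 to 7.46 CPM in the high class (median 5.03) and from 0.481 to 2.37 in the low class (median 1.54). The classes did not overlap, and the log2 fold change was 1.99 ± 0.41 (adjusted p = 0.148).

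Lbx1, which sets the fate of late-born dorsal interneurons, ran from 3.35 to 7.7 CPM (median 5.54) against 0.221 to 3.51 (median 1.95), with 1.87 ± 0.46. It overlapped only between series. Pax2 and Pax8, which mark inhibitory interneurons among others, had 1.65 ± 0.50 and 1.62 ± 0.40. Mafa, a transcription factor of dorsal horn and sensory neurons, ran from 6.1 to 9.26 CPM (median 7.58) against 1.89 to 5.3 (median 3.95), without overlap, and its log2 fold change was 0.92 ± 0.20 (adjusted p = 0.183). The excitatory interneuron genes Tlx3 and Lmx1b had 1.13 ± 0.39 and 0.90 ± 0.27, Phox2a, which specifies visceral neurons of the brain stem, 1.42 ± 0.49, and Skor1 1.11 ± 0.32.

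The 2 most abundant genes of that list did not share the shift. Zfhx3, which is expressed in many parts of the brain, ran from 119 to 206 CPM in the high class and from 123 to 203 in the low class, with 0.08 ± 0.12. Bhlhe22, which the cortex expresses too, ran from 97.5 to 143 against 51.6 to 150, with -0.12 ± 0.17. Summed over the list the classes overlapped widely, at 781 to 1080 and 705 to 857 CPM. The members with large fold changes were thus scarce ones.

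**Figure D2:**
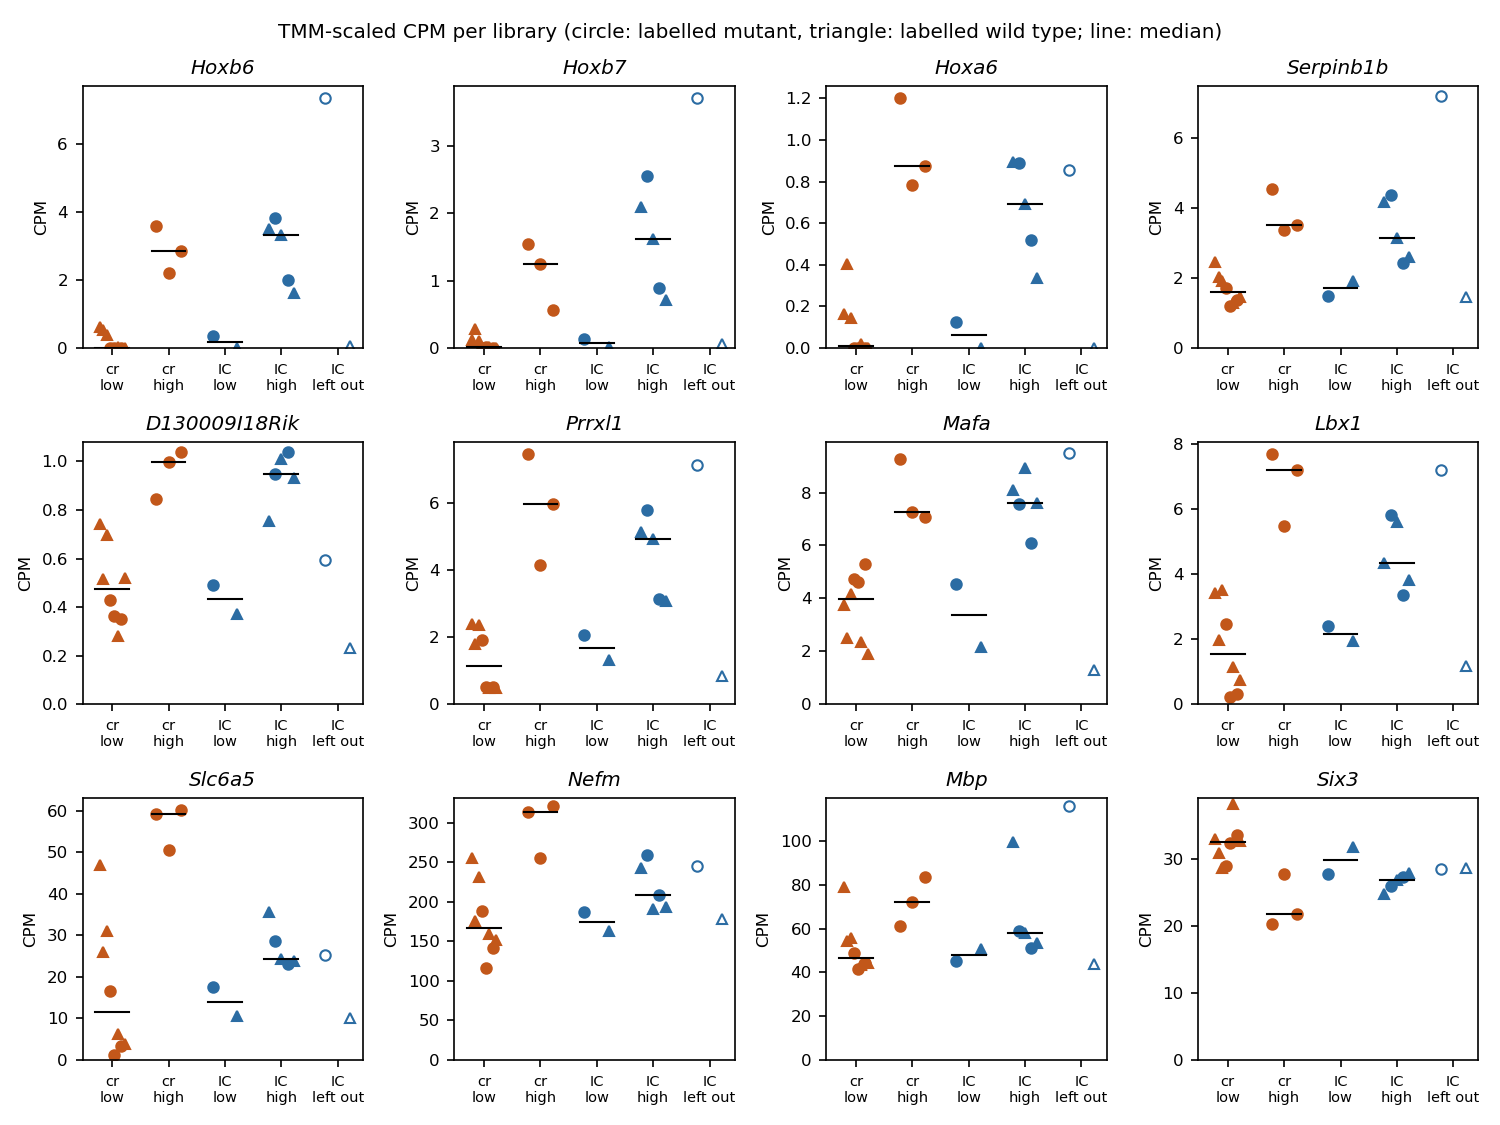
TMM-scaled CPM of 12 genes in each library, by series and Hoxb8 class, with circles for libraries labelled mutant, triangles for those labelled wild type, open symbols for the 2 left out and a line at each median. Prrxl1 and Mafa separate the classes without overlap (3.07 to 7.46 against 0.481 to 2.37 CPM and 6.1 to 9.26 against 1.89 to 5.3), Slc6a5 does so only within each series, and Six3 runs the other way.

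Ventral interneurons, the locomotor circuit neurons, differed less. Of 27 tested genes, 22 had a positive log2 fold change, 5 were higher at an unadjusted p under 0.05 and 1 was lower, with a median of 0.15. Lhx3, shared with motor neurons and the pituitary, had 1.57 ± 0.53, Pkd2l1, a channel of the neurons that touch the cord's central canal, 0.99 ± 0.33, Evx1 0.75 ± 0.32 and Nkx6-1 0.71 ± 0.32. Sim1, which is also a hypothalamic gene, had -0.60 ± 0.26, with lower levels in the high pups of 5 of 5 litters. The 2 most abundant members were Foxp2 (-0.03 ± 0.06) and Calb1 (0.00 ± 0.10), which are expressed in many brain regions.

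Motor neurons drive muscle and use acetylcholine. Of 25 tested genes, 21 had a positive log2 fold change, 15 were higher at an unadjusted p under 0.05 and 1 was lower, with a median of 0.35. Nefm, the medium neurofilament of large axons, ran from 191 to 321 CPM in the high class (median 249) and from 116 to 256 in the low class (median 170), with 0.67 ± 0.15 (adjusted p = 0.234). The top of the low range was 4_2_Cr. Nefh, the heavy neurofilament, had 0.94 ± 0.24, and Prph, the neurofilament of peripheral and motor axons, 1.25 ± 0.39.

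The cholinergic genes were higher as well at an unadjusted p under 0.05. Slc18a3, which loads acetylcholine into vesicles, ran from 3.31 to 5.6 CPM in the high class (median 4.73) and from 1.75 to 5.61 in the low class (median 2.86), with 0.83 ± 0.22. The choline transporter Slc5a7 had 0.65 ± 0.18 and Chat, the synthetic enzyme, 0.44 ± 0.18. Ret, the receptor for a motor neuron survival factor, had 0.63 ± 0.16, Calcb 1.43 ± 0.38, and Tbx20, a factor of cranial motor neurons, 1.18 ± 0.39. Isl1, which the striatum also expresses, was the member that was lower, from 13.5 to 27.8 CPM (median 22.1) against 22.9 to 32.6 (median 28), with -0.28 ± 0.10 and lower levels in the high pups of 5 of 5 litters. Foxp1, the other most abundant member beside Nefm and also a gene of striatum and cortex, had -0.03 ± 0.09.

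Glycine is the fast inhibitory transmitter of the brain stem and cord. Slc6a5, the transporter that glycinergic neurons use to refill their terminals, had 50.5 to 60.1 CPM in the high PWS-cr libraries and 1.17 to 46.9 in the low ones, and 23.2 to 35.7 in the high PWS-IC libraries against 10.6 to 17.5. It separated the classes within each series but not across them, and its log2 fold change was 1.95 ± 0.58 (adjusted p = 0.447). Among the low libraries the highest values were 46.9 CPM in 4_2_Cr, 31.1 in 3_6_Cr and 26 in 4_1_Cr, and the lowest were 3.4 and 1.17 in 1_1_Cr and 1_2_Cr. Glra1, the adult glycine receptor subunit, had 1.31 ± 0.34. The most abundant genes of the pathway, which other brain regions share, had 0.06 ± 0.05 for the scaffold gene Gphn and 0.03 ± 0.03 for the fetal subunit Glra2, and 3 of the 9 genes tested were higher at an unadjusted p under 0.05.

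Monoamine neurons of the brain stem lie mostly in front of the Hoxb8 domain. Of 15 genes, 14 had a positive log2 fold change, 2 were higher at an unadjusted p under 0.05 (Dbh and Lmx1b), and the median was 0.25. Dbh, which makes noradrenaline, ran from 2.31 to 4.52 CPM in the high class (median 2.82) and from 0.205 to 4.95 in the low class (median 1.82), with 1.12 ± 0.50. The serotonin genes Tph2 and Slc6a4 had 0.87 ± 0.42 and 0.60 ± 0.30, neither at an unadjusted p under 0.05, and Tph2 had 1.71 ± 0.67 in the PWS-cr series against 0.14 ± 0.14 in the PWS-IC series. The most abundant members, Slc18a2, shared with midbrain dopamine neurons, and Gata3, shared with the midbrain, had 0.07 ± 0.09 and 0.12 ± 0.19.

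Myelin starts in the cord and brain stem and reaches the forebrain later, and its genes were higher in the high class. Of 30 tested, 28 had a positive log2 fold change, 17 were higher at an unadjusted p under 0.05 and 1, Mog, was lower (-0.20), with a median of 0.30. Mobp, a protein of compact myelin, ran from 0.732 to 5.17 CPM in the high class (median 1.27) and from 0.0218 to 3.94 in the low class (median 0.441), with 2.76 ± 0.75 (adjusted p = 0.346). The ranges overlapped. The high pups were higher in 5 of 5 litters, a count that was not made over all genes.

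Mbp, the major structural protein of the sheath, ran from 51.3 to 99.6 CPM (median 60) against 41.5 to 79.2 (median 47), with 0.54 ± 0.15. Enpp6 and Bcas1, which mark cells that have just begun to myelinate, had 1.34 ± 0.36 and 0.76 ± 0.20, and Cnp had 0.41 ± 0.13. The precursor genes, which are spread through the whole brain at this age, shifted by less, with 0.20 ± 0.05 for Pdgfra (adjusted p = 0.255) and 0.28 ± 0.10 for Olig1. The fold changes of the precursor genes were thus smaller than those of the sheath genes.

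Astrocyte genes showed the same lean. Of 15 tested, 13 had a positive log2 fold change and 8 were higher at an unadjusted p under 0.05, with a median of 0.18. S100b ran from 3.72 to 8.67 CPM in the high class (median 6.24) and from 2.61 to 7.78 in the low class (median 3.18), with 0.96 ± 0.23. Aqp4, the water channel of astrocyte endfeet, had 0.60 ± 0.15 and Aldoc 0.45 ± 0.11. Fabp7, a radial glia gene and the most abundant of the list, had 0.05 ± 0.05.

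The forebrain was the reverse. Of 31 tested genes, 1 had a positive log2 fold change, 12 were lower at an unadjusted p under 0.05 and 0 were higher, with a median of -0.26. Six3, which specifies the front of the forebrain, ran from 20.3 to 28 CPM in the high class (median 26.5) and from 27.9 to 38.3 in the low class (median 32.2), with -0.31 ± 0.08 (adjusted p = 0.343). Dlx1 of the ganglionic eminences had -0.38 ± 0.15, Nkx2-1 of the ventral forebrain -0.32 ± 0.12, Lhx8 of basal forebrain cholinergic neurons -0.59 ± 0.25 and the cortical gene Emx2 -0.26 ± 0.09.

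The abundant cortical genes had wider errors. Neurod6 ran from 162 to 253 CPM against 81.7 to 247, with -0.18 ± 0.18, and Bcl11b from 181 to 274 against 178 to 349, with -0.20 ± 0.13. The lowest Neurod6 of any library in either class, 81.7 CPM, was in 4_2_Cr, a low library. CPM is a share of a library, so a brain with more hindbrain and cord has a smaller share of forebrain, and fewer forebrain cells and such dilution cannot be told apart. Without 4_2_Cr, 18 of the 31 genes were lower at an unadjusted p under 0.05, and without 1_2_Cr 4 were.

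The cerebellum and midbrain lie in front of the Hoxb8 domain. Cerebellar genes had a median log2 fold change of 0.13, with 20 of 25 positive, 2 higher at an unadjusted p under 0.05, Skor2 (0.90 ± 0.42) and Lhx1 (0.42 ± 0.18), which dorsal interneurons share, and 1 lower, Eomes (-0.45 ± 0.18). Midbrain and isthmus genes had a median of 0.03, with 12 of 21 positive, 0 higher and 2 lower, Tal2 (-0.55 ± 0.26) and Sp8 (-0.45 ± 0.21), and Otx2, which sets the border between midbrain and hindbrain, had 0.03 ± 0.18. General factors of hindbrain segments and caudal patterning had a median of 0.06, with 11 of 16 positive and 1 higher, Meis1 (0.53 ± 0.17), a partner of Hox proteins. Meis2 and Pbx3, the most abundant of that list, had -0.01 ± 0.06 and 0.06 ± 0.06.

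**Figure D3:**
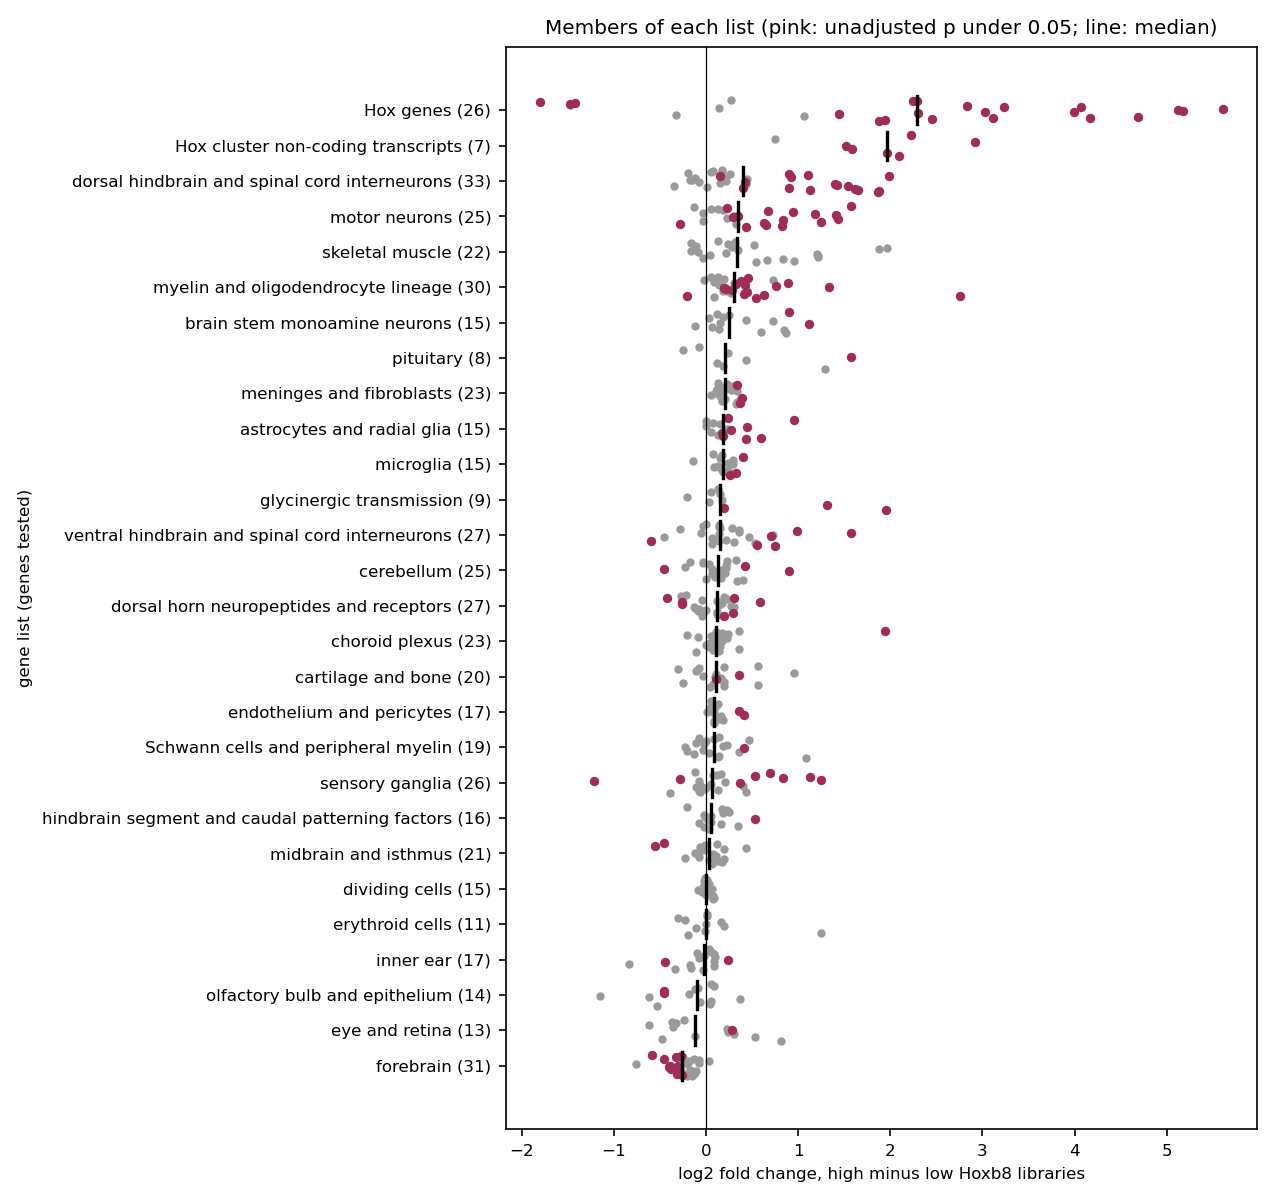
Log2 fold changes, high minus low Hoxb8 libraries, of the tested members of 28 marker lists, 1 point per gene, with pink for an unadjusted p under 0.05 and a black line at each list's median; the number of genes stands in brackets. Hox genes (median 2.29), their non-coding transcripts (1.96), dorsal interneurons (0.40), motor neurons (0.35) and myelin (0.30) lie to the right of 0, and forebrain genes (-0.26) to the left.

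Tissues that adjoin the brain were looked at because a longer cut can carry them along. Skeletal muscle had a median log2 fold change of 0.34 with 17 of 22 positive, with 0 genes at an unadjusted p under 0.05. The summed list stood at 120 CPM in 3_5_Cr and at 45.2 to 53.1 in the other 7 high libraries, and without 3_5_Cr the median was -0.04 with 8 of 20 positive. Myh8, the perinatal myosin, had 23.5 CPM in 3_5_Cr, 9.25 in 4_2_Cr and 1.12 to 4.53 in the other 16 libraries. Ckm, the creatine kinase of muscle, had 4.27, 1.44 and 0.0201 to 0.545 in the same order. Neb and Pax7, the most abundant of the list and the second also a midbrain gene, had -0.11 ± 0.12 and 0.13 ± 0.28.

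Cartilage and bone had a median of 0.11 with 2 of 20 genes higher, Hapln1 (0.36 ± 0.15) and Col9a3 (0.11 ± 0.04), the latter with 42.6 to 55.4 CPM against 40.1 to 52.7, and Col9a2 had 0.17 ± 0.12. Meninges and fibroblasts were positive throughout, 23 of 23 with a median of 0.21, but 3 passed an unadjusted p under 0.05: Igf2 (0.39 ± 0.14), Mgp (0.34 ± 0.16) and Col1a2 (0.37 ± 0.17). Summed, they ran from 962 to 1530 CPM against 650 to 1360. Ptgds, a meningeal gene and with Zic1 the most abundant of the list, had 0.29 ± 0.19, and Zic1 had 0.13 ± 0.11.

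Sensory ganglia had a median of 0.07, with 6 of 26 genes higher and 2 lower. Ngfr, a neurotrophin receptor, had 0.53 ± 0.15, and Runx3, a factor of muscle afferents, was the clearest in the other direction at -1.22 ± 0.33 (adjusted p = 0.341). Runx3 had at most 0.745 CPM in any library, so this rests on few reads. Gfra2 and Scn9a, the most abundant members, had 0.16 ± 0.09 and -0.02 ± 0.09. Dorsal horn neuropeptides and receptors had a median of 0.12, with 14 of 27 positive, 4 higher and 3 lower. The higher ones were Cartpt (0.59 ± 0.21), Penk (0.29 ± 0.12), Tac1 (0.20 ± 0.08) and Npr1 (0.30). The lower ones were Trh (-0.42), Nts (-0.26) and Nmb (-0.26). Sst and Npy, abundant in the cortex as well, had -0.04 ± 0.10 and -0.09 ± 0.15. Schwann cells had a median of 0.09 with 1 of 19 higher, Cnp. Drp2 and Pou3f1, its most abundant members, had -0.02 ± 0.04 and -0.13 ± 0.10.

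In other tissues around the brain few genes passed an unadjusted p under 0.05. Choroid plexus had a median of 0.11 with 1 of 23 genes higher, which was Hoxa2, and its main secreted product Ttr had -0.11 ± 0.19 and the transporter Slc4a10 0.04 ± 0.07. The pituitary list had 0.21 with 1 of 8 higher (Lhx3), with Tshb at 0.12 ± 0.16. The median of eye and retina was -0.12 with 1 of 13 higher (Crybb1, 0.28 ± 0.12), with 0.24 ± 0.12 for Cryab. That of the inner ear was -0.02 with 1 of 17 higher (Coch, 0.24 ± 0.06) and 1 lower (Slc26a4, -0.44 ± 0.16). That of the olfactory bulb and epithelium was -0.10 with 2 of 14 lower (Eomes and Sp8), where the most abundant members Gnai2 and Calb2 had 0.06 ± 0.07 and -0.09 ± 0.12. Among inner ear genes Otof had 0.09 ± 0.07, and Myo7a stood at 54 to 67.3 CPM throughout the PWS-cr series and at 3.02 to 5.58 in the PWS-IC libraries of both classes, a difference between the series and not between the classes.

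Cells found throughout the brain were read in 4 lists. Erythroid cells had a median of 0.00 with 0 of 11 genes at an unadjusted p under 0.05, with -0.01 ± 0.17 for Hbb-bs, a beta globin. Dividing cells had 0.00 with 0 of 15, with 0.09 ± 0.13 for Top2a and 0.08 ± 0.15 for Mki67. Endothelium and pericytes had 0.09, with 17 of 17 positive and 2 higher (Ly6c1, 0.36 ± 0.11, and Slco1a4, 0.41 ± 0.19), with 0.15 ± 0.10 for Kdr and 0.04 ± 0.07 for Rgs5. Microglia had a median of 0.18 with 14 of 15 positive and 3 higher: Cx3cr1 (0.26 ± 0.09), Fcrls (0.40 ± 0.16) and P2ry12 (0.33 ± 0.15). Csf1r, the most abundant member, had 0.18 ± 0.09, without an unadjusted p under 0.05.

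With the log2 CPM of Hoxb8 as a continuous term in place of the 2 classes, 171 of 23574 genes were called. Of these, 167 were higher with more Hoxb8 and 4 were lower. This term uses the graded low class, and it too is built from Hoxb8 of the same libraries. Hoxb8, fitted there on its own level, is counted among the 167 and among the Hox genes. The term called 16 of 26 Hox genes, 6 of 33 dorsal interneuron genes (Prrxl1, Mafa, Pax8, Lmx1b, Lbx1 and Phox2a), 11 of 25 motor neuron genes, 8 of 30 myelin genes, 3 of 15 astrocyte genes (S100b, Aqp4 and Aldoc) and both Slc6a5 and Glra1. Emx2 was called downwards, the only forebrain gene. The continuous term called 0 genes of the muscle, cartilage, meninges, choroid plexus, cerebellum, midbrain, microglia, endothelium, erythroid and dividing cell lists. Caudal lists were not all called either. It called 0 of 16 genes of hindbrain segments and caudal patterning and 0 of 27 dorsal horn neuropeptides and receptors. Of 27 ventral interneuron genes it called 1, Lhx3.

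Each series was also fitted alone. In the PWS-cr series (3 high, 8 low) 0 of 22739 genes were called, with 1745 at an unadjusted p under 0.05 (7.67%; 4.61% higher, 3.06% lower), and in the PWS-IC series (5 high, 2 low) 0 of 23300, with 539 (2.31%; 1.55% higher, 0.768% lower). DESeq2 called 78 and 16 genes in the same fits. At an unadjusted p under 0.05, 18 of 26 tested Hox genes were higher and 3 lower in the PWS-cr series, and 19 of 20 were higher in the PWS-IC series. With 5 high and 2 low libraries there, a gene could pass the filter on low counts through the high class alone, and Hoxb8 is in both counts. For dorsal interneurons 14 and 8 genes were higher, for motor neurons 16 and 9, for myelin 17 and 2 and for astrocytes 7 and 5, while 13 forebrain genes were lower in the PWS-cr series and 0 in the PWS-IC series. The median of the Hox list was 2.99 in the PWS-cr series and 2.19 in the PWS-IC series, that of motor neurons 0.70 and 0.20, that of dorsal interneurons 0.46 and 0.13, that of the forebrain -0.39 and -0.11 and that of myelin 0.32 and 0.23.

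The test of the difference between series nevertheless called 0 genes of any list and 1 gene in all (0.00424%), the pseudogene Gm7240. It stood at 1.4 to 1.98 CPM in every PWS-cr library of either class, at 0 in 4 of the 5 high PWS-IC libraries and in 4_5_IC, and at 0.874 in 1_5_IC, so the call rests on 1 low library. At an unadjusted p the difference was seen for Tlx3, with 2.48 ± 0.50 in the PWS-cr series and 0.11 ± 0.19 in the PWS-IC series (adjusted p of the difference = 1). The olfactory bulb neuron genes Tbx21 and Cdhr1 stood at different sides of 0 in the 2 series, with Tbx21 at -2.60 ± 0.37 and Cdhr1 at -1.46 ± 0.22 there and 0.47 ± 0.81 and 0.46 ± 0.42 in the other series. Neither gene was called in either series.

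**Figure D4:**
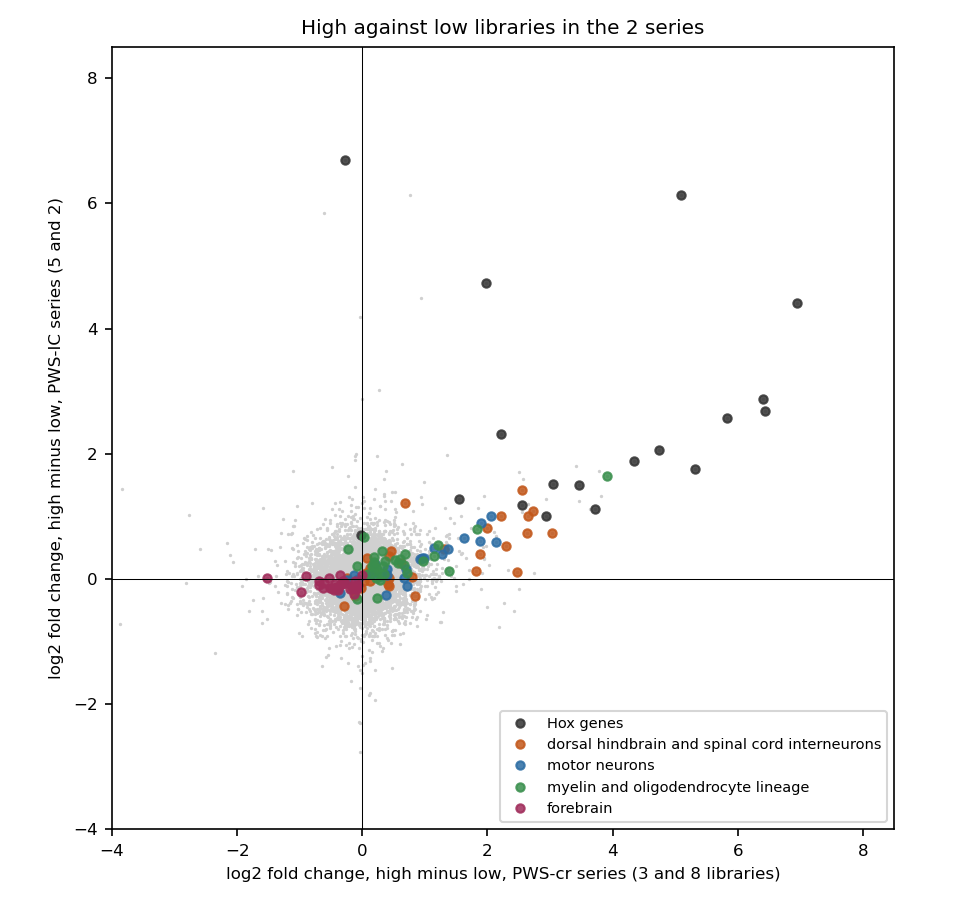
Log2 fold change, high minus low, of each gene in the PWS-cr series (x axis, 3 high and 8 low libraries) and the PWS-IC series (y axis, 5 and 2), with all genes in grey and 5 lists in colour; 2 genes lie outside the axes. Most Hox genes and the scarce interneuron genes lie in the upper right, further out along the PWS-cr axis, and forebrain genes gather to the left of 0.

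The pair that was left out can be read only as values, 1 library with much Hoxb8 and 1 with little from the same litter. Over all genes 1_3_IC was above 1_7_IC for 11388 of 23501 (48.5%). For Hox genes with counts, Hoxb8 among them, 1_3_IC was above in 22 of 23. It was above for 26 of 33 dorsal interneuron genes, 20 of 25 motor neuron genes and 27 of 30 myelin genes. It was above for 13 of 15 astrocyte genes and 9 of 31 forebrain genes. It was also above for 15 of 15 microglia and 19 of 23 meningeal genes, and for 12 of 22 muscle and 8 of 20 cartilage genes. Hoxb6 stood at 7.33 CPM and 0.0497, Prrxl1 at 7.11 and 0.845, and Serpinb1b at 7.17 and 1.44. With the pair included and genotype as labelled, 10 genes were called in place of 7, and with series as the only other term 15 were.

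The last comparison asked how the genotype effect of each series read with and without a term for the Hoxb8 class. In the PWS-cr series, where 3 of 6 mutants and 0 of 5 wild types were high, the genotype test called 2 of 22739 genes with the term (0.0088%) and 3 without it (0.0132%). Snhg14, the host transcript of the deleted small nucleolar RNAs, fell by 1.62 ± 0.10 with the term and by 1.67 ± 0.07 without it (adjusted p = 0.00061 and 2.52e-06), and Gm44831 was the other call in both.

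Mafa, the dorsal horn gene described above, had a genotype effect of 1.36 ± 0.23 without the term (adjusted p = 0.37) and of 1.01 ± 0.34 with it (adjusted p = 1). Its high mutants had 7.08 to 9.26 CPM, and the low libraries of that series, mutant and wild type, had 1.89 to 5.3. The unadjusted p of Mafa in the genotype test was 0.000114 without the term and 0.0144 with it. In its own analysis the paper reports Mafa and Ndn as higher in PWS-cr brains. Ndn had 0.74 ± 0.10 without the term and 0.87 ± 0.14 with it (adjusted p = 0.0696 and 0.547). A230103L15Rik was called without the term (0.64 ± 0.07, adjusted p = 0.0108) and not with it (0.64 ± 0.11, adjusted p = 0.547), with the same size and a larger error. Igf1 had 0.21 ± 0.13 without and 0.55 ± 0.14 with the term, and Gm44559 had 0.58 ± 0.08 and 0.54 ± 0.13.

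**Figure D5:**
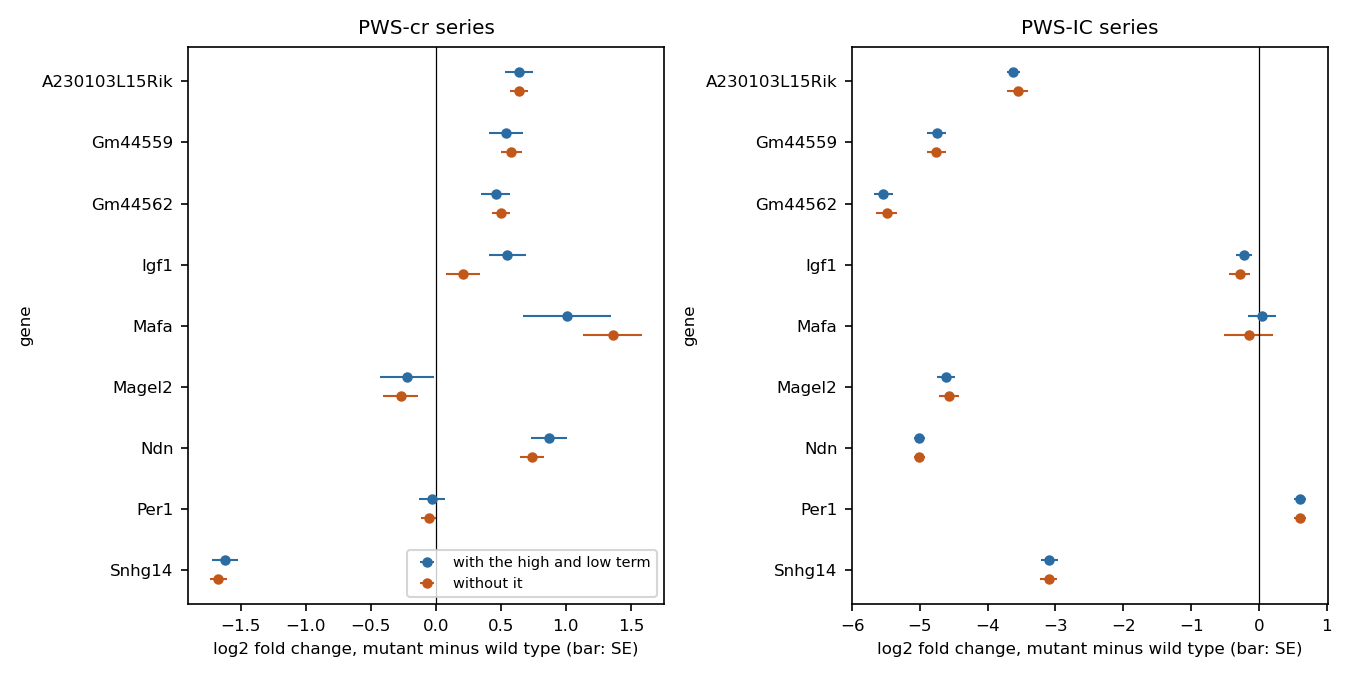
Log2 fold change, mutant minus wild type, of 9 genes in the PWS-cr series (left) and the PWS-IC series (right), fitted with (blue) and without (orange) a term for the Hoxb8 class; bars are standard errors. In the PWS-cr series Mafa moves from 1.36 to 1.01 once the term is added, while Snhg14 stays at -1.67 and -1.62; in the PWS-IC series the 2 values of each gene drawn differ by at most 0.20.

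In the PWS-IC series both classes held both genotypes. With the term 87 of 23300 genes were called (0.373%), 34 higher and 53 lower, and without it 65 were (0.279%), of which 61 were among the 87. All 3 mutants used there were female and 3 of the 4 wild types male, with 1_1_IC the only female wild type. Genotype and sex were thus largely mixed and no sex term was fitted there, and Y-linked genes are among the lower calls. Uty, one of them, had -16.24 ± 0.86 with the term and -9.49 ± 1.70 without it, and Ddx3y, Kdm5d and Eif2s3y were likewise called with the term alone. The imprinted genes had close values in both fits. Snrpn fell by 5.26 ± 0.12 with the term and 5.27 ± 0.12 without it, Ndn by 5.01 ± 0.08 in both fits, Magel2 by 4.62 ± 0.13 and 4.57 ± 0.15, Mkrn3 by 4.49 ± 0.12 and 4.52 ± 0.12, and Snhg14 by 3.09 ± 0.13 and 3.10 ± 0.12. Per1, a clock gene, was higher by 0.61 ± 0.09 in both (adjusted p = 0.0155 and 0.0151). Mafa had 0.05 ± 0.20 with the term and -0.15 ± 0.36 without it.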

How the data were processed

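Whole brains of newborn pups were sequenced from polyadenylated RNA, and per the labels the reads were processed with mm10, STAR, featureCounts, DESeq2 and kallisto. The raw counts deposited by the authors, whole numbers per gene and library, were the values used. The authors also deposited size-factor scaled counts as a signal, FPKM and TPM, and columns of their own comparison with a log2 fold change, its standard error on the log2 scale, a test score and a p-value with its adjusted form; none of these was used. The 2 tables, of 55409 and 55406 genes, were joined on the gene identifier, which left 55406. Of 22 labelled libraries, 20 had a column of counts and the other 2 were not analysed here.

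The members and the marker lists were chosen with earlier results of these data known. Genes were kept with at least 10 counts in 4 libraries (both series), 3 (PWS-cr) or 2 (PWS-IC). Counts were scaled by TMM and fitted with edgeR 4.0.16 (quasi-likelihood, R 4.3.3; limma 3.58.1 was loaded with it) with terms for class, series and genotype, leaving 13 residual degrees of freedom in both series, 8 in PWS-cr and 4 in PWS-IC. P-values were adjusted by Benjamini-Hochberg over all genes tested, at 0.05. SE is the log2 fold change divided by the square root of F. DESeq2 1.42.0 was an alternative, and its fit of the genotype effect without the class term was chosen after seeing the data. The continuous term added 0.1 CPM to Hoxb8 before the log. The fit was tested on simulated data. Other alternatives were another normalization, filter, dispersion option, covariates, Hoxb8 limit and set of libraries. Litters were read from the first number of the library name within a series. Total counts were at least 45796030 per library in the 18 libraries. Intervals cover counting error only.

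The named genes were every Hox gene, called genes by size with a mean of at least 1 CPM, up to 4 called members of each list by smallest p or else its 2 most abundant members, and the genes named in the study for the genotype effects. Some genes that it names are not reported here.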

Additional observations from a re-analysis of the deposited data

Results flagged for a closer look

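Within each class, the highest or lowest library was compared with its nearest neighbour, as a share of the class's range, for the named values and the summed CPM of each list. Of 70 groups, 18 had a library that stood apart. Chance alone gives about 1 in 20 for a single normally spread group. Lists share genes and the same libraries recur, so the 18 are not separate events to set against that rate. In the low class, 4_1_Cr stood above the other 9 libraries for Hoxb7 (0.276 CPM) and Hoxa6 (0.405 CPM).

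The low library 4_2_Cr, a wild type of the PWS-cr series with 80 Hoxb8 counts, was the highest low library for the summed lists of ventral interneurons (407 CPM), glycinergic transmission (459), monoamine neurons (184), sensory ganglia (247), myelin (722), skeletal muscle (89), cartilage and bone (209), the pituitary (13.1), eye and retina (16.4) and astrocytes (2612), and the lowest for the forebrain (1205).

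In the high class, 1_5_Cr stood above the others for dorsal interneurons (1081 CPM), monoamine neurons (158) and the pituitary (16.4), and 3_5_Cr for meninges and fibroblasts (1526) and skeletal muscle (120). The class effect differed between the series for the pseudogene Gm7240, by -6.43 on the log2 scale (PWS-IC minus PWS-cr). Of the 2 libraries left out, 1_3_IC had 21.1 CPM of Hoxb8, above the 12.8 of the highest library used.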

How the results depend on the processing

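The calls of the class difference depended on the processing. In place of 7 genes, DESeq2 called 35, no filter beyond 1 count 73, a filter of 10 counts in every library 0 (1407 at an unadjusted p under 0.05), the robust option 3, litter in place of series 0 (2384), no genotype term 13, both left-out libraries added without genotype 15, a limit of 50 counts 101, leaving out the libraries with 50 to 150 counts 16 and the continuous term 171. The 7 genes were among the calls of DESeq2, of the unfiltered fit and of the continuous term. RLE factors and library sizes without list genes gave 7, sex as a term 6 and the pair with genotype as labelled 10. Leaving out 1 library at a time gave 0 to 11 calls: 0 without 1_5_IC (1840), 1 without 1_1_Cr or 1_2_Cr, 3 without 1_5_Cr or 2_2_Cr, 4 without 3_5_Cr or 4_3_Cr and 11 without 4_4_IC or 4_5_IC. In the PWS-cr series DESeq2 called 78, the unfiltered fit 88 and the mutants alone 119, in place of 0, and leaving out 1 library gave 0 to 60 (60 without 4_2_Cr, 7 without 3_1_Cr, 1 without 4_3_Cr or 3_6_Cr). In the PWS-IC series DESeq2 called 16 and litter as a term 6, and leaving out 1 library gave 0 to 1 (1 without 4_6_IC or 4_5_IC). DESeq2 called 5 genes for the difference between series in place of 1. For the PWS-cr genotype it called 7 with the class term in place of 2, and 7 without it in place of 3. For the PWS-IC genotype it called 187 with the term in place of 87, and 220 without it in place of 65. The causes were not tested. Of the forebrain list, 4 to 18 of 31 genes were lower at an unadjusted p under 0.05 across alternatives. For single genes, 4553 values kept direction and side of the threshold, 149 passed it newly, 54 no longer passed it and 61 changed sign. The sign changes, on the log2 scale, follow. With 1_3_IC and 1_7_IC and genotype as labelled they were Calb2 0.01, Rgs5 -0.01, Sst 0.07, Ttr 0.04 and Zfhx3 -0.02. With this pair and no genotype term they were Calb2 0.04, Mki67 -0.01, Npy 0.09, Rgs5 -0.01, Sst 0.11, Ttr 0.06 and Zfhx3 -0.02. With the limit at 50 they were Calb2 0.05, Hoxb1 0.22, Mki67 -0.08, Rgs5 -0.01, Scn9a 0.10, Top2a -0.08 and Ttr 0.02. With the continuous term they were Calb2 0.01, Hoxb1 0.06 and Scn9a 0.01. Without the libraries between 50 and 150 counts they were Foxp1 0.03, Gata3 -0.14, Meis2 0.03, Npy 0.02, Otx2 -0.18, Pax7 -0.22, Sst 0.08 and Zfhx3 -0.06. With litter in place of series they were Hbb-bs 0.03 and Ttr 0.07. With sex as a term they were Hbb-bs 0.02 and Scn9a 0.02. Without genotype they were Hbb-bs 0.10 and Hoxb9 -0.11. Leaving out 1 library at a time, the values ran for Calb2 -0.15 to 0.01, Foxp1 -0.08 to 0.02, Foxp2 -0.09 to 0.01, Gata3 -0.11 to 0.24, Hbb-bs -0.17 to 0.20, Hoxb9 -0.32 to 0.74, Meis2 -0.05 to 0.04, Mki67 -0.02 to 0.19, Otx2 -0.19 to 0.14, Pax7 -0.18 to 0.31, Rgs5 -0.03 to 0.08, Scn9a -0.06 to 0.02, Slc4a10 -0.01 to 0.08, Sst -0.12 to 0.02, Ttr -0.34 to 0.03 and Zfhx3 -0.03 to 0.16. No paired analysis was possible because replicate numbers were given in accession order and mark no shared animal. High and low pups of 1 litter were compared with litter as a term, which gave 0 calls over both series. In the PWS-IC series it gave 6 calls, 1 higher and 5 lower in the high class, in place of 0.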
